A study of Mus musculus with 6 samples.

Results

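The 10 genes described here are classical markers of Müller glia, the radial glial cells of the retina: *Rlbp1*, *Glul*, *Aqp4*, *Apoe*, *Sox9*, *Sox2*, *Vim*, *Gfap*, *Clu* and *Dkk3*. They were chosen by gene symbol from the 21744 genes of an RNA sequencing (RNA-seq) table of the mouse retina at postnatal day 7 (P7), and all 10 were found. None passed the adjusted threshold between control retinas and retinas labelled *Lhx4* null. *Apoe*, *Vim* and *Dkk3* were 1.18-fold to 1.28-fold higher on the fitted scale in the libraries labelled *Lhx4* null, with no overlap between the groups. Such a separation in the same direction was found for 8.10% of all genes tested. *Gfap*, the usual marker of reactive glia, overlapped fully.

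The study asked what the LIM-homeodomain transcription factor *Lhx4* does in the developing retina, and these libraries addressed its effect on the transcriptome. In the study, control mice were wild type or carried 1 floxed *Lhx4* allele (*Lhx4* loxP/+) where retinal function was measured, and carried the tdTomato allele (*Lhx4* tdT/+ or *Lhx4* loxP/tdT) where labelled cells were followed, and *Lhx4* null mice carried a tdTomato knock-in allele over a floxed allele with a Cre driver active in the developing retina (*Lhx4* tdT/loxP; *Six3*-Cre). Which control genotype each library came from is not given in the sources used here. Each group had 3 mice of a C57BL/6J; 129S6 mixed background, the retinas of 1 mouse made 1 library, and the pigment epithelium had been dissected away. None of the control genotypes named carries *Six3*-Cre, so its presence cannot be told apart from the loss of *Lhx4*, and whether the controls sequenced carried the knock-in allele is not given.

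Müller glia span the whole thickness of the retina and arise last, with rods and bipolar cells, from the progenitors that also make neurons. They take up glutamate and turn it into glutamine, buffer potassium and water, supply lipids, and help to recycle visual pigment. When the retina is damaged they become reactive, and intermediate filament genes such as *Gfap* and *Vim* are the usual readout of that state. In the mouse their generation is close to its end at P7, and many of their genes are still shared with progenitors.

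Values are FPKM, sequenced fragments scaled to transcript length and to library size, so levels can be compared between genes per length. Fold changes were fitted with limma on log2(FPKM + 0.1), null-labelled minus control, for the 15200 genes whose mean reached 0.1 FPKM, and p-values were adjusted over all of them by the Benjamini-Hochberg method. Of the genes tested, 34 passed an adjusted p under 0.05 in either direction (0.224%). The sequencing depth read from the steps between low FPKM values ran from 76.9% to 100% of the deepest library in the controls and from 46.7% to 65.9% in the null-labelled libraries, so the null-labelled libraries were all shallower. *Lhx4* itself went against the label: control libraries held 20.9, 23.8 and 19.1 FPKM and null-labelled libraries 31.2, 30.3 and 29.0 FPKM (log2 fold change 0.51, SE 0.091, limma adjusted p = 0.0978). Gene-level values do not show whether those transcripts hold the floxed part. Groups are therefore named by their labels throughout.

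Promoter sequences from RefSeq (GRCm38.p6, windows of 300 bases that end 50 bases after a transcript's start) were found for 6 of the 10 members: *Rlbp1*, *Glul*, *Apoe*, *Sox2*, *Vim* and *Gfap*. The 4 shown are those of the 3 members past an unadjusted p of 0.05 that have a sequence (*Apoe*, *Vim*, *Sox2*) and of *Gfap*, the gliosis gene set beside *Vim* in the comparison. *Apoe* has 3 listed starts, of which the first is printed. The gene spans given below come from another annotation (GENCODE), and the starts can differ. The *Sox2* window ends at 34650044, before its GENCODE span begins at 34650405. Capitals mark matches on either strand to TATAAA (the TATA box), CCAAT (the CCAAT box), TAATTA (a core of LIM-homeodomain sites), ACAAAG (a core of SOX sites) and TTCNNNGAA (a core of STAT sites).
*Apoe* (chr7:19699139-19699438, minus strand): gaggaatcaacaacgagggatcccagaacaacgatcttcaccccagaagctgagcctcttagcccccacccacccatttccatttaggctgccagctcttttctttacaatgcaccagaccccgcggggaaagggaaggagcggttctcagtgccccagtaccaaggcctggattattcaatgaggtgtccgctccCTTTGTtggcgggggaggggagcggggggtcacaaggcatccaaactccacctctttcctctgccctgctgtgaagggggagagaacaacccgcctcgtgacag
*Vim* (chr2:13574061-13574360, plus strand): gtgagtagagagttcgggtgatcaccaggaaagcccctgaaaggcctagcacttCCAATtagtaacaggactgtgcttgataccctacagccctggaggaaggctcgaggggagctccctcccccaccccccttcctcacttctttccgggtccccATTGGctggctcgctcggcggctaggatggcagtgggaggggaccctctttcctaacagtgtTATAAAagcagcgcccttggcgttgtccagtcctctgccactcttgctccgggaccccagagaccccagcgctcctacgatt
*Sox2* (chr3:34649745-34650044, plus strand): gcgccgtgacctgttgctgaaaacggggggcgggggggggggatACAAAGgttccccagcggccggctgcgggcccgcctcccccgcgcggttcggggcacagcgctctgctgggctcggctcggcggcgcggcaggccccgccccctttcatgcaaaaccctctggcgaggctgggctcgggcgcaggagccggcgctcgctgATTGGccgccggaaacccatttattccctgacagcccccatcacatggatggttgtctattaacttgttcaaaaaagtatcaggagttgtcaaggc
*Gfap* (chr11:102897151-102897450, minus strand): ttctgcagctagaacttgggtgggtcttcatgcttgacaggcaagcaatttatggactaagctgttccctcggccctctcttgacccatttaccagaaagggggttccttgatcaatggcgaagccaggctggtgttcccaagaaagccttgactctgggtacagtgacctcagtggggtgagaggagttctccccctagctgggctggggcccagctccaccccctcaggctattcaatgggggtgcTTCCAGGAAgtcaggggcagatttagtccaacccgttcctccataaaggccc

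The *Vim* window held 1 TATAAA, 32 bases before the start, and 2 CCAAT matches, and the *Gfap* window held neither. The *Gfap* window held 1 TTCNNNGAA match, found in 8.3% of all 32851 promoter windows of the same length, and no other of the 6 members had one. ACAAAG stood in the windows of *Apoe*, *Sox2* and *Rlbp1* (3 of 6, against 18.7% of all windows) and CCAAT in those of *Vim*, *Sox2* and *Glul* (3 of 6, against 37.4%). TATAAA stood in the windows of *Vim* and *Rlbp1* (2 of 6, against 13.6%), and TAATTA in 0 of 6, against 5.29% of all windows. The counts use the first listed start of each gene, the motifs do not overlap one another in these windows, and a match is a description of the letters only.

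Over the 10 members, 8 had a positive and 2 a negative fitted log2 fold change, and the median was 0.25 against 0.011 over all genes tested. By limma, 0 members passed an adjusted p of 0.05. At an unadjusted p under 0.05, 4 members were higher in the null-labelled libraries (*Apoe*, *Dkk3*, *Vim* and *Sox2*), read against 4.60% of all genes tested, and 0 were lower, against 3.55% of all genes tested. All 3 null-labelled libraries lay above all 3 controls for 3 members (*Apoe*, *Dkk3* and *Vim*), against 8.10% of all genes tested, and below all controls for 0, against 6.13%. The summed level of the 10 genes was 693 to 769.6 FPKM in the controls and 850.4 to 867 FPKM in the null-labelled libraries, and without *Apoe* it was 408 to 468 FPKM and 475 to 507 FPKM. From RNA of whole retina alone, a difference in the number of glia and a difference in RNA per glial cell cannot be told apart. The study counted Müller glia on stained sections and reported no significant change in their number at P7 or in the adult.

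**Figure D1:**
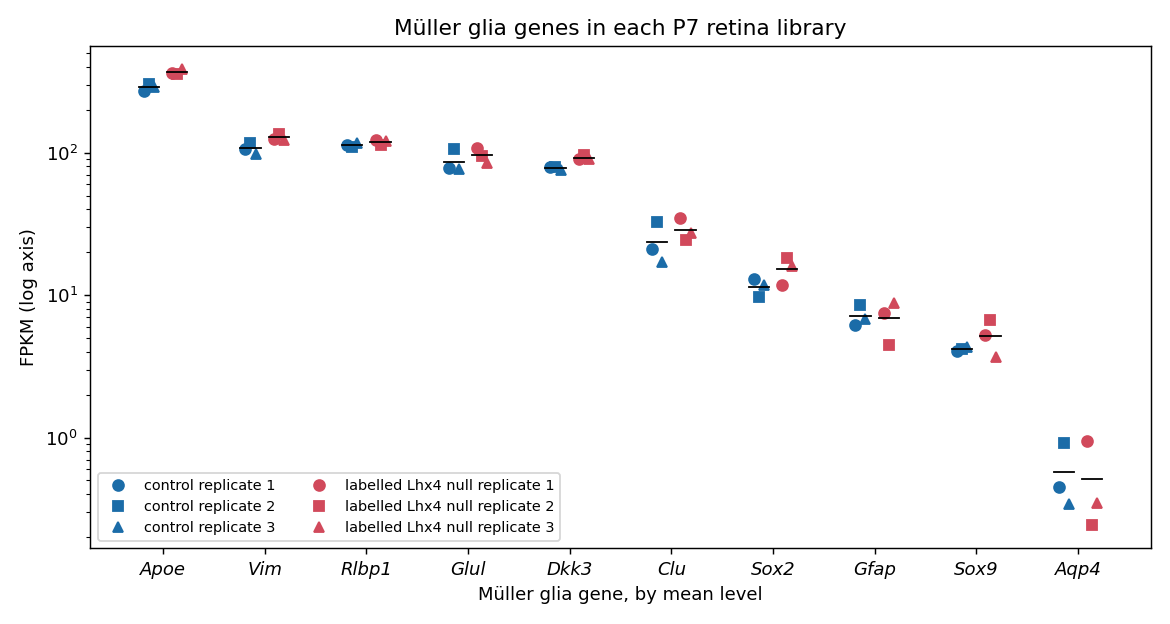
FPKM of the 10 Müller glia genes (log axis) in each P7 retina library, in order of mean level. Blue points are the 3 controls, red points the 3 libraries labelled *Lhx4* null, symbols give the replicate number and black lines the group means. Levels run from 328 FPKM for *Apoe* to 0.540 FPKM for *Aqp4*, and *Apoe*, *Vim* and *Dkk3* are the genes whose red points all lie above the blue ones.

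The levels of the members, as means over all 6 libraries, spanned a wide range. *Apoe* was highest at 328 FPKM and stood in the 99.3th percentile of the genes tested. *Vim* (118 FPKM) and *Rlbp1* (117 FPKM) followed, and their ranges over the libraries overlapped. *Glul* (91.2 FPKM) and *Dkk3* (85.1 FPKM) also overlapped each other, and lay below *Rlbp1* in every library. *Clu* (26.2 FPKM) overlapped *Sox2* (13.4 FPKM), *Gfap* (7.03 FPKM) overlapped *Sox9* (4.69 FPKM), and *Aqp4* came last at 0.540 FPKM, in the 12.4th percentile. The glutamate and retinoid genes of differentiated glia were therefore near the top of the table at P7, while the water channel was close to the filter.

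*Rlbp1* (ENSMUSG00000039194, chromosome 7, 79374870 to 79387048, minus strand, GRCm38, 10 exon blocks) encodes the retinaldehyde-binding protein CRALBP, which carries the chromophore in the visual cycle. It measured 114, 110.0 and 117 FPKM in the controls and 123, 114 and 121 FPKM in the null-labelled libraries. The groups overlapped, and within each group the highest library was at most 1.08 times the lowest, so *Rlbp1* was among the steadiest members. The means were 113.5 ± 3.48 and 119.6 ± 4.89 FPKM (SD, n = 3 each). The log2 fold change was 0.074 with an SE of 0.067, a fold of 1.05 with a 95% interval of 0.947 to 1.17 (limma adjusted p = 0.796).

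CRALBP is also made by the retinal pigment epithelium, so the markers of that tissue stand beside it. Of 11 pigment epithelium genes, 10 were higher and 1 lower in the null-labelled libraries, 6 at an unadjusted p under 0.05, with a median log2 fold change of 0.70. Their summed level was 32.4 to 58.2 FPKM in the controls and 60.8 to 101 FPKM in the null-labelled libraries, and none of the 11 was at 0. The most abundant of them was *Ttr*, the thyroxine carrier transthyretin, at 25.9, 22.1 and 11.9 FPKM in the controls and 27.8, 35.3 and 48.5 FPKM in the null-labelled libraries. *Rpe65*, the isomerase that defines this tissue, was at 0.975, 0.727 and 0.457 FPKM in the controls and at 0.465, 0.862 and 1.61 FPKM in the null-labelled libraries, which overlap. The groups did not overlap for 4 of the 11 (*Mlana*, *Pmel*, *Rgr* and *Ttr*, all higher), against 8.10% of all genes tested. *Rlbp1* was 75.3 to 265 times *Rpe65* in every library. The part of pigment epithelium in the *Rlbp1* level was not tested.

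Other genes that handle retinoids included *Rgr*, *Stra6*, *Rdh10* and *Degs1*. *Stra6*, a receptor for vitamin A uptake, measured 3.72, 4.24 and 3.61 FPKM in the controls and 5.11, 5.94 and 6.18 FPKM in the null-labelled libraries (log2 fold change 0.56, SE 0.12, limma adjusted p = 0.173). *Rgr*, a retinal G protein-coupled receptor of Müller glia and pigment epithelium, measured 5.09, 4.46 and 3.22 FPKM against 6.22, 6.41 and 8.36 FPKM (log2 fold change 0.72, SE 0.18, limma adjusted p = 0.349). Neither overlapped between the groups. The most abundant of these, the retinol dehydrogenase *Rdh10* (mean 19.6 against 22.5 FPKM), overlapped.

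*Glul* (ENSMUSG00000026473, chromosome 1, 153899944 to 153909723, plus strand, 10 exon blocks) encodes glutamine synthetase, which converts glutamate taken up by the glia into glutamine. Of its exon bases, 3.49% are shared with *Mir8114* and *Teddm2*, and the other members share none. It measured 77.7, 105 and 76.9 FPKM in the controls and 108, 94.1 and 84.5 FPKM in the null-labelled libraries. One control, replicate 2, lay above 2 of the 3 null-labelled libraries, so the groups overlapped. The means were 86.7 ± 16.3 and 95.6 ± 11.97 FPKM (SD, n = 3 each), with a log2 fold change of 0.15, SE 0.14 (fold 1.11, 95% interval 0.889 to 1.39, limma adjusted p = 0.797). It was 0.30 without control replicate 2 (limma unadjusted p = 0.0282, adjusted p = 0.606) and 0.057 without null-labelled replicate 1.

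The 10 other genes of glutamate and ion handling gave a median log2 fold change of 0.043, with 6 positive and 4 negative values, and 0 genes passed an adjusted or an unadjusted p of 0.05 in limma. *Slc1a3*, the glial glutamate transporter GLAST, measured 53.8, 60.0 and 52.8 FPKM in the controls and 64.0, 52.5 and 57.1 FPKM in the null-labelled libraries. *Kcnj10*, the potassium channel Kir4.1, measured 2.83, 3.22 and 2.66 FPKM against 3.85, 3.76 and 2.78 FPKM. Both overlapped, and both were named for their role after their values had been seen. The most abundant were the carbonic anhydrase *Car2* (mean 150.3 against 138 FPKM, log2 fold change -0.13) and the glutamine transporter *Slc38a3* (88.2 against 92.3 FPKM). The smallest unadjusted p among the 10 was that of *Dag1*, dystroglycan, which anchors channels at the glial endfeet (log2 fold change 0.21, SE 0.11, limma adjusted p = 0.654).

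*Aqp4* (ENSMUSG00000024411, on chromosome 18) encodes the water channel of the Müller glial endfeet. It measured 0.453, 0.917 and 0.342 FPKM in the controls and 0.938, 0.242 and 0.349 FPKM in the null-labelled libraries. One library of each group was near 0.9 FPKM and the other 4 were under 0.5 FPKM, so the spread within a group exceeded the difference between the groups. The highest library was 2.68 times the lowest among the controls and 3.88 times among the null-labelled libraries. The log2 fold change was -0.21 with an SE of 0.46 (fold 0.862, 95% interval 0.418 to 1.78, limma adjusted p = 0.930), and it turned positive when control replicate 2 or null-labelled replicate 2 was left out (0.13 and 0.12).

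*Apoe* (ENSMUSG00000002985, chromosome 7, 19696109 to 19699188, minus strand, 5 exon blocks) encodes apolipoprotein E, the main lipid carrier that glia secrete. It measured 272, 301 and 291 FPKM in the controls and 360.2, 356 and 388 FPKM in the null-labelled libraries. The lowest null-labelled library was above the highest control. The means were 288.0 ± 14.8 and 368.1 ± 17.5 FPKM (SD, n = 3 each), and the log2 fold change was 0.35 with an SE of 0.080 (fold 1.28, 95% interval 1.13 to 1.45). Its unadjusted p of 0.0020 ranked 132nd of all genes tested, and its limma adjusted p of 0.230 did not pass. The log2 fold change stayed between 0.31 and 0.40 under every one of the 15 alternatives run.

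*Apoe* is made by microglia and pigment epithelium as well. Of 12 microglia genes, 10 were higher and 2 lower in the null-labelled libraries, with a median log2 fold change of 0.26 and 2 at an unadjusted p under 0.05. Their summed level was 55.1 to 62.4 FPKM in the controls and 58.7 to 83.9 FPKM in the null-labelled libraries, which overlap, and none was at 0. *Csf1r*, the receptor that microglia need to survive, measured 3.22, 3.60 and 3.27 FPKM in the controls and 4.63, 4.34 and 4.46 FPKM in the null-labelled libraries, with no overlap (log2 fold change 0.40, limma adjusted p = 0.335). *Tyrobp*, an adaptor of microglial receptors, overlapped (log2 fold change 0.35, limma adjusted p = 0.564). The pigment epithelium sums given beside *Rlbp1* did not overlap between the groups. The part of either cell type in the *Apoe* difference was not tested.

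*Clu* (ENSMUSG00000022037, chromosome 14, 65968483 to 65981547, plus strand, 14 exon blocks) encodes clusterin, a secreted chaperone also called apolipoprotein J. It measured 21.2, 32.8 and 17.02 FPKM in the controls and 34.7, 24.3 and 27.4 FPKM in the null-labelled libraries. The groups overlapped, because control replicate 2 was above 2 of the null-labelled libraries. The means were 23.7 ± 8.20 and 28.8 ± 5.34 FPKM (SD, n = 3 each), with a log2 fold change of 0.32, SE 0.23 (fold 1.25, 95% interval 0.867 to 1.79, limma adjusted p = 0.738). Single libraries moved it: the log2 fold change was 0.58 without control replicate 2 (limma unadjusted p = 0.0082, adjusted p = 0.486), 0.11 without control replicate 3 and 0.18 without null-labelled replicate 1.

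Among 8 other lipoprotein genes (receptors, transporters and their regulator), 6 were higher and 2 lower, 4 at an unadjusted p under 0.05, and 0 passed an adjusted p of 0.05 in limma. The median log2 fold change was 0.24. *Lrp8*, an apolipoprotein E receptor, measured 52.9, 52.7 and 51.7 FPKM in the controls and 57.6, 68.5 and 59.9 FPKM in the null-labelled libraries (log2 fold change 0.24, SE 0.079, limma adjusted p = 0.509). *Abca1*, which loads cholesterol onto apolipoproteins, measured 14.1, 13.3 and 14.8 FPKM against 15.6, 18.5 and 16.2 FPKM (log2 fold change 0.24, limma adjusted p = 0.556). Neither overlapped. The liver X receptor *Nr1h2*, the second most abundant of the 8 (mean 43.7 against 46.9 FPKM), overlapped.

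*Sox2* (ENSMUSG00000074637, chromosome 3, 34650405 to 34652461, plus strand, a single exon of 2057 bases) encodes a transcription factor of progenitors that mature Müller glia keep. It measured 12.9, 9.63 and 11.7 FPKM in the controls and 11.7, 18.2 and 16.0 FPKM in the null-labelled libraries. Null-labelled replicate 1 lay within the control range and the other 2 above it, so the groups overlapped. The means were 11.4 ± 1.64 and 15.3 ± 3.32 FPKM (SD, n = 3 each). The log2 fold change of 0.41, SE 0.17, was the largest of the members (fold 1.33, 95% interval 1.01 to 1.74, limma unadjusted p = 0.0433, adjusted p = 0.605). The unadjusted p was 0.161 without null-labelled replicate 2 and 0.143 without control replicate 2.

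*Sox9* (ENSMUSG00000000567, chromosome 11, 112782224 to 112787760, plus strand, 3 exon blocks) encodes a second SOX factor of progenitors and glia. It measured 4.04, 4.18 and 4.31 FPKM in the controls and 5.23, 6.69 and 3.67 FPKM in the null-labelled libraries. The controls lay close together, with the highest 1.07 times the lowest. The null-labelled libraries lay on both sides of them, with the highest 1.82 times the lowest. The log2 fold change was 0.27 with an SE of 0.19 (fold 1.20, 95% interval 0.882 to 1.64, limma adjusted p = 0.741), and it was 0.067 without null-labelled replicate 2 and 0.49 without null-labelled replicate 3 (limma unadjusted p = 0.0078, adjusted p = 0.346).

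Of 11 other fate factors that late progenitors and Müller glia share, 9 were higher and 2 lower, 3 at an unadjusted p under 0.05, with a median log2 fold change of 0.24, and 0 passed an adjusted p of 0.05 in limma. *Nfix*, a nuclear factor I gene of late progenitors, measured 23.5, 24.9 and 22.4 FPKM in the controls and 28.7, 32.0 and 26.3 FPKM in the null-labelled libraries (log2 fold change 0.29, SE 0.088, limma adjusted p = 0.448). *Lhx2*, a LIM-homeodomain factor needed for Müller glia, measured 23.5, 22.2 and 20.4 FPKM against 23.8, 32.1 and 26.2 FPKM (log2 fold change 0.30, limma adjusted p = 0.575). Both were without overlap, though *Lhx2* in null-labelled replicate 1 was only just above the highest control. The homeobox gene *Rax*, the most abundant of the 11, was at 39.8 to 46.0 FPKM in the controls and 41.5 to 56.2 FPKM in the null-labelled libraries, which overlap.

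Progenitors share *Sox2*, *Sox9* and *Vim* with glia. Of 10 genes of cycling late progenitors, 9 were higher and 1 lower in the null-labelled libraries, with a median log2 fold change of 0.44 that was 0.16 without null-labelled replicate 2 and 0.79 without null-labelled replicate 1. By limma 1 passed an unadjusted p of 0.05 (*Sfrp2*, log2 fold change 0.67, limma adjusted p = 0.468). Their summed level was 76.4 to 102 FPKM in the controls and 80.1 to 146 FPKM in the null-labelled libraries, and none was at 0. The cyclin *Ccnd1*, the most abundant of the 10, was at 34.97, 26.0 and 36.8 FPKM in the controls and 30.2, 66.9 and 42.8 FPKM in the null-labelled libraries. Null-labelled replicate 2 was the highest library for *Sox2*, *Sox9*, *Vim* and *Ccnd1*, and for the member *Dkk3* as well. The replication gene *Pcna*, the second in abundance, was at 35.1 to 38.6 FPKM and 31.1 to 38.4 FPKM, which overlap. Cholinergic amacrine cells also express *Sox2*: of 5 further genes of these cells 4 were higher and 1 lower (median log2 fold change 0.23), with sums of 17.7 to 21.5 FPKM and 21.9 to 24.97 FPKM and none at 0. The part of progenitors or amacrine cells in the *Sox2*, *Sox9* and *Vim* values was not tested.

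**Figure D2:**
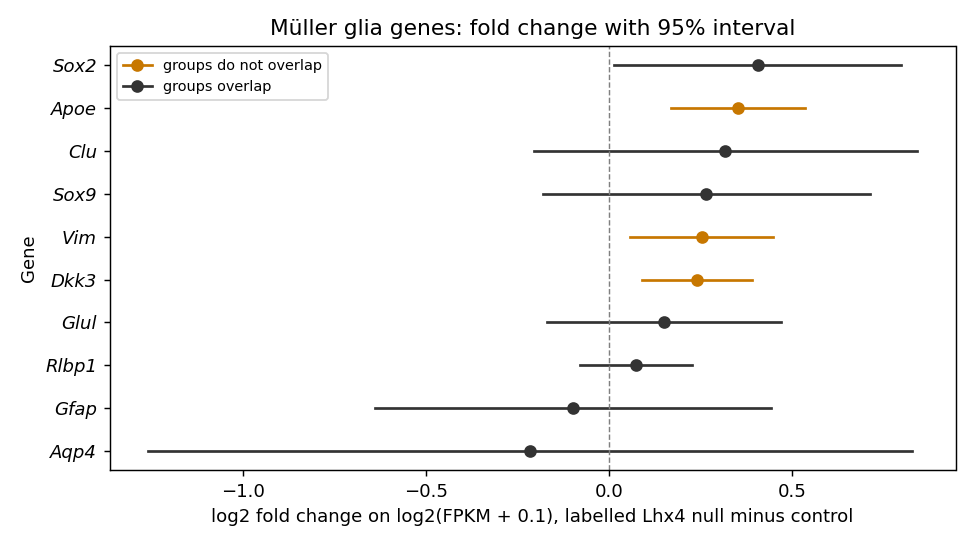
Fitted log2 fold change of each member (x axis, log2(FPKM + 0.1), null-labelled minus control), with bars for the 95% interval of the limma fit over 3 libraries a group. Orange marks genes whose groups do not overlap (*Apoe*, *Vim*, *Dkk3*). The intervals of *Apoe*, *Dkk3*, *Vim* and *Sox2* lie above 0, and that of *Aqp4* is the widest.

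*Vim* (ENSMUSG00000026728, chromosome 2, 13573927 to 13582826, plus strand, 7 exon blocks) encodes vimentin, the intermediate filament protein of Müller glia and their progenitors. It measured 106, 118 and 98.5 FPKM in the controls and 125, 136 and 123 FPKM in the null-labelled libraries. All null-labelled libraries were above all controls, by a margin of a few FPKM between control replicate 2 and null-labelled replicate 3. The means were 107.4 ± 9.74 and 127.9 ± 7.08 FPKM (SD, n = 3 each), and the log2 fold change was 0.25 with an SE of 0.085 (fold 1.19, 95% interval 1.04 to 1.37, limma unadjusted p = 0.0173, adjusted p = 0.518). The unadjusted p was 0.0560 without control replicate 1, 0.0830 without control replicate 3 and 0.0581 without null-labelled replicate 2.

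*Gfap* (ENSMUSG00000020932, chromosome 11, 102887336 to 102900912, minus strand, 11 exon blocks) encodes glial fibrillary acidic protein, low in resting Müller glia and high in reactive ones and in retinal astrocytes. It measured 6.18, 8.50 and 6.84 FPKM in the controls and 7.45, 4.46 and 8.77 FPKM in the null-labelled libraries. The highest and the lowest of the 6 libraries were both null-labelled, so the controls lay inside the null-labelled range. The means were 7.17 ± 1.20 and 6.89 ± 2.21 FPKM (SD, n = 3 each). The log2 fold change was -0.098 with an SE of 0.24, a fold of 0.934 with a 95% interval of 0.642 to 1.36 (limma adjusted p = 0.940). It was 0.029 without control replicate 2 and 0.18 without null-labelled replicate 2, so its direction rests on single libraries.

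*Gfap* as a share of *Vim*, in FPKM, averaged 6.66% in the controls and 5.46% in the null-labelled libraries. Retinal astrocytes, which enter from the optic nerve, also make *Gfap*. Of 5 other astrocyte genes 3 were higher and 2 lower, 0 passed an adjusted or unadjusted p of 0.05 in limma, and the sums were 13.1 to 14.4 FPKM in the controls and 14.2 to 15.2 FPKM in the null-labelled libraries, with none at 0. *Pax2*, the factor that defines retinal astrocytes, was between 0.735 and 1.02 FPKM in all 6 libraries. The part of astrocytes in the *Gfap* level was not tested.

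Beyond *Vim* and *Gfap*, 20 genes of reactive gliosis were listed and all were in the table, but 10 of them were under 1 FPKM in every library and 4 (*Cxcl10*, *Edn2*, *Lif* and *Steap4*) were too low to be tested. Of the 16 tested, 12 had a positive and 4 a negative log2 fold change, 3 were higher and 2 lower at an unadjusted p under 0.05, and 0 passed an adjusted p of 0.05 in limma. The median log2 fold change was 0.11. The genes therefore split in direction, as the plot of their fold changes shows, and the median ran from -0.013 (without control replicate 3) to 0.26 over the 15 alternatives.

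**Figure D3:**
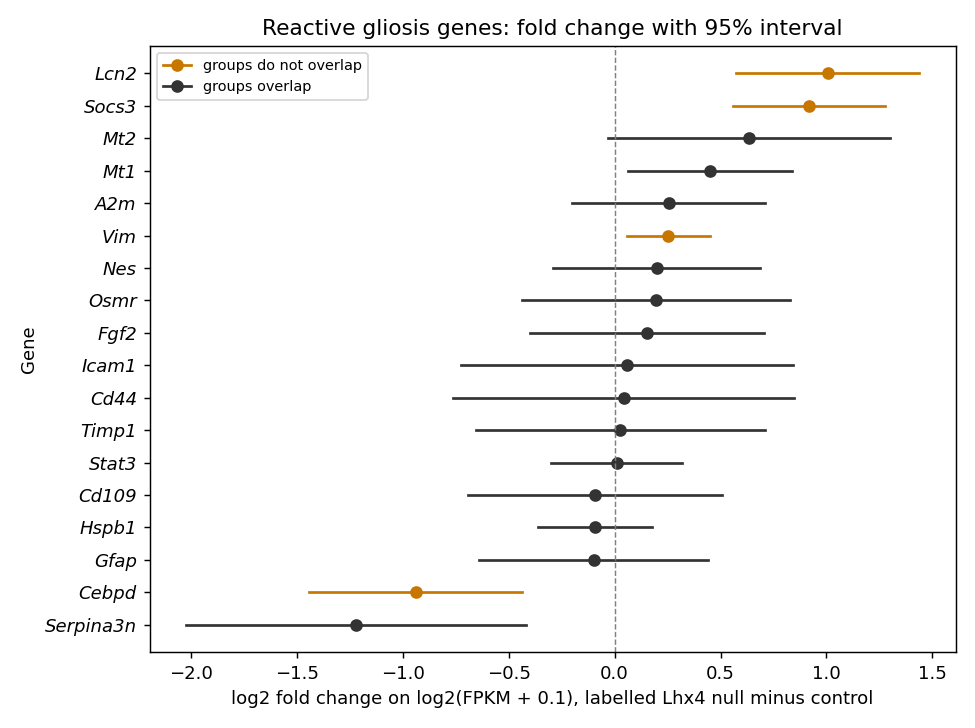
Fitted log2 fold change of *Vim*, *Gfap* and the 16 tested genes of reactive gliosis (x axis, log2(FPKM + 0.1), null-labelled minus control), with 95% intervals of the limma fit over 3 libraries a group and orange for groups that do not overlap. *Lcn2* (1.00) and *Socs3* (0.92) lie at the top, *Serpina3n* (-1.22) and *Cebpd* (-0.94) at the bottom, and *Gfap* and *Stat3* near 0.

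*Socs3*, a feedback inhibitor of cytokine signalling, measured 1.65, 1.97 and 1.52 FPKM in the controls and 3.46, 3.72 and 2.81 FPKM in the null-labelled libraries (log2 fold change 0.92, SE 0.16, limma adjusted p = 0.0880). *Lcn2*, the secreted lipocalin of reactive astrocytes, measured 0.533, 0.526 and 0.428 FPKM against 0.916, 1.14 and 1.25 FPKM (log2 fold change 1.00, SE 0.19, limma adjusted p = 0.121). Neither overlapped, and *Lcn2* is among the genes that the study had called from these libraries, so its direction is not independent evidence. *Cebpd*, a transcription factor of the acute-phase response, went the other way, at 1.97, 2.54 and 1.86 FPKM in the controls and 0.836, 0.950 and 1.45 FPKM in the null-labelled libraries (log2 fold change -0.94, SE 0.22, limma adjusted p = 0.260).

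*Serpina3n*, an acute-phase protease inhibitor of reactive astrocytes, measured 1.19, 1.23 and 0.665 FPKM in the controls and 0.267, 0.265 and 0.672 FPKM in the null-labelled libraries (log2 fold change -1.22, SE 0.35, limma adjusted p = 0.413). Its groups just overlapped, through control replicate 3 and null-labelled replicate 3. The most abundant of the list were the metallothionein *Mt1* (mean 17.7 against 24.2 FPKM, log2 fold change 0.45, limma adjusted p = 0.569) and the cytokine-activated factor *Stat3*. *Stat3* measured 15.7, 19.0 and 13.0 FPKM in the controls and 16.6, 14.6 and 16.4 FPKM in the null-labelled libraries, with a log2 fold change of 0.0098 (SE 0.13).

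*Dkk3* (ENSMUSG00000030772, chromosome 7, 112116017 to 112159057, minus strand, 8 exon blocks) encodes a secreted glycoprotein of the Dickkopf family and is a marker of Müller glia. It measured 79.0, 79.2 and 75.5 FPKM in the controls and 89.9, 96.6 and 90.0 FPKM in the null-labelled libraries. The groups were well apart relative to their spread, with the highest library 1.05 times the lowest among the controls and 1.07 times among the null-labelled libraries. The means were 77.9 ± 2.09 and 92.2 ± 3.86 FPKM (SD, n = 3 each), and the log2 fold change was 0.24 with an SE of 0.065 (fold 1.18, 95% interval 1.07 to 1.31, limma unadjusted p = 0.0057, adjusted p = 0.381). It stayed between 0.21 and 0.27 under the 15 alternatives.

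A further 11 markers of Müller glia gave 8 positive and 3 negative log2 fold changes with a median of 0.12, of which 2 were higher at an unadjusted p under 0.05 and 0 passed an adjusted p of 0.05 in limma. *Prdx6*, an antioxidant enzyme, measured 41.9, 43.5 and 40.1 FPKM in the controls and 46.7, 45.8 and 52.2 FPKM in the null-labelled libraries, with no overlap (log2 fold change 0.20, SE 0.075, limma adjusted p = 0.564). *Spon1*, a secreted matrix protein, overlapped (log2 fold change 0.25, limma adjusted p = 0.612). *Dbi*, the acyl-CoA-binding protein, was the most abundant at 290.2 to 436 FPKM over the 6 libraries, followed by *Mfge8*, a secreted bridging protein, at 72.1 to 100.2 FPKM, and both overlapped. Over the 32 other glial genes together (uptake, fate and other markers), 23 were higher and 9 lower, 5 at an unadjusted p under 0.05, and the median of 0.11 was under the 0.25 of the members.

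The spread between libraries differed among the members. The pooled SD within groups, on the log2(FPKM + 0.1) scale, was 0.050 for *Dkk3*, 0.052 for *Rlbp1* and 0.071 for *Apoe*, and smaller than that of most of the 500 genes of nearest level: 9.2%, 12% and 22.6% of those genes varied less. *Vim*, at 0.11, was in the middle (51.6%). *Glul* (0.22), *Sox2* (0.28), *Sox9* (0.30), *Gfap* (0.39), *Clu* (0.39) and *Aqp4* (0.74) varied more than 90.6% to 99.0% of the genes of like level. With these errors the smallest log2 fold change that would pass an unadjusted p of 0.05 was 0.15 for *Dkk3*, 0.20 for *Vim*, 0.52 for *Clu*, 0.54 for *Gfap* and 1.04 for *Aqp4*.

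That spread had a common order in several genes, which was noticed after the values had been seen and was not tested. Control replicate 2 and null-labelled replicate 1 were the highest 2 libraries for *Aqp4*, *Glul* and *Clu*. They were also the highest for the transporter *Abca8a*, at 12.1 and 10.7 FPKM against 0.889 to 3.91 FPKM in the other 4. The same libraries held the most of the rod transducin gene *Gnat1*, at 84.3 and 56.1 FPKM against 20.05 to 35.8 FPKM, and the least of the proliferation gene *Top2a*, at 2.05 and 3.12 FPKM against 5.40 to 9.64 FPKM. For *Sox2*, control replicate 2 was the lowest library and null-labelled replicate 1 was level with control replicate 3.

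**Figure D4:**
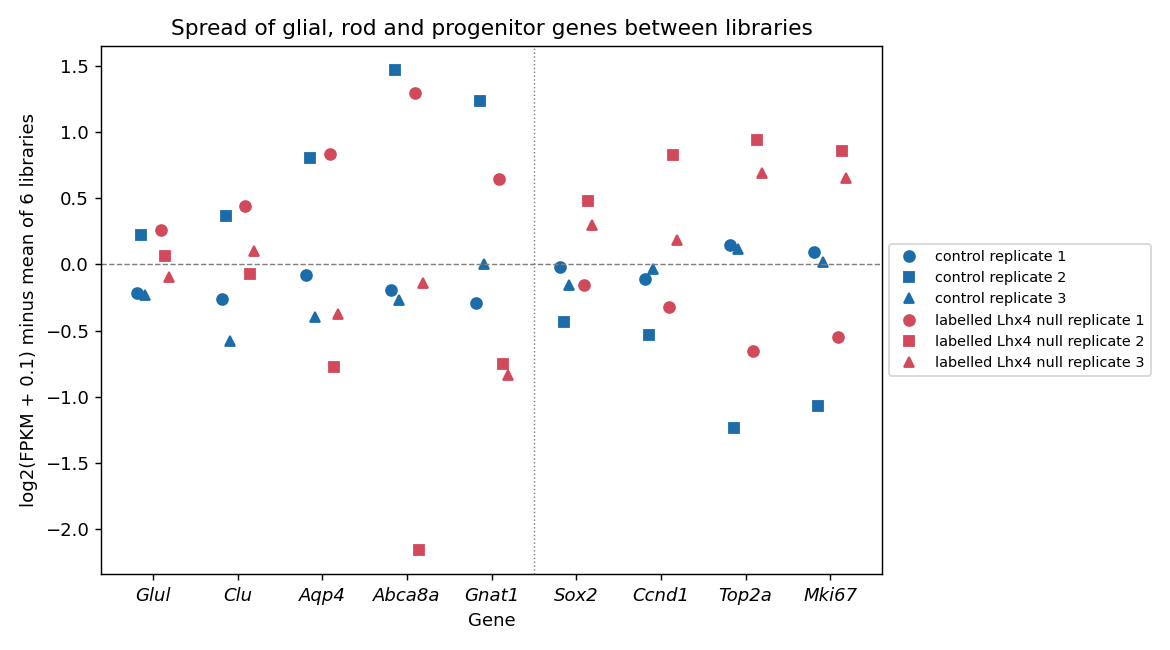
log2(FPKM + 0.1) of each gene minus its mean over the 6 libraries (y axis), with symbols for the replicate number, blue for control and red for libraries labelled *Lhx4* null. Left of the dotted line are glial and rod genes, right of it *Sox2* and progenitor genes. The blue square and red circle (control replicate 2 and null-labelled replicate 1) lie at the top on the left and below 0 on the right.

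Without those 2 libraries, an alternative added after seeing the data, 0 members passed an adjusted p of 0.05 and the median log2 fold change was 0.26. At an unadjusted p under 0.05, 6 members were higher in place of 4, while the share over all genes tested went from 4.60% to 6.21%. The added members were *Glul* (0.21) and *Clu* (0.44), which with *Aqp4* had served to pick the pair, so leaving it out narrowed their spread by construction and no test is read from them. Of the members that had not served to pick it, *Apoe* was at 0.40, *Sox2* at 0.47, *Vim* at 0.34, *Dkk3* at 0.27 and *Gfap* at -0.053. These values were above those fitted with all libraries, while *Sox9* (0.24, from 0.27) and *Rlbp1* (0.028, from 0.074) were below.

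**Figure D5:**
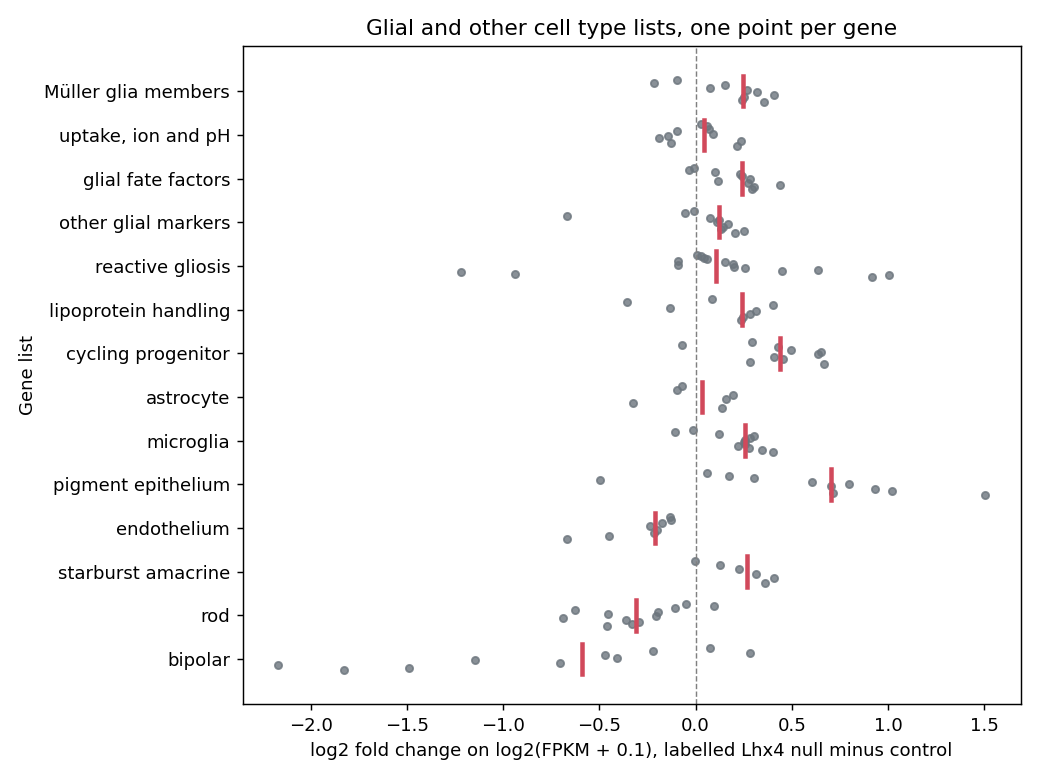
Fitted log2 fold change of every tested gene (x axis, log2(FPKM + 0.1), null-labelled minus control) in the member list and in other glial and cell type lists (y axis), with a red bar at each median. The astrocyte and starburst amacrine rows include *Gfap* and *Sox2*. The member median is 0.25, between those of uptake genes (0.043) and cycling progenitors (0.44), with pigment epithelium highest (0.70) and bipolar cells lowest (-0.59).

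Among the neuronal lists the medians had either sign. They were positive, like that of the members, for cones (0.36, 6 of 9 higher), amacrine cells (0.16, 9 of 9 higher) and horizontal cells (0.12, 3 of 4 higher), -0.0052 for ganglion cells, and negative for bipolar cells and rods. The cone genes split, with 4 higher and 2 lower at an unadjusted p under 0.05, against 4.60% and 3.55% of all genes tested. By limma 1 of the higher cone genes passed an adjusted p of 0.05. Of 10 bipolar genes 8 were lower (median log2 fold change -0.59) and 4 of these passed an adjusted p of 0.05. The study had called *Grik1*, *Grm6*, *Pcp2* and *Trpm1* of this list lower in these libraries, so their direction is not independent evidence. Of 12 rod genes 11 were lower, with a median of -0.31. FPKM are shares of a library, and the part of the lower bipolar and rod shares in the member values was not tested. Scaling the libraries by the median of ratios moved the median of all genes from 0.011 to -0.0030 and left *Apoe* at 0.34, *Dkk3* at 0.23 and *Vim* at 0.24. This scaling divides all genes of a library by the same factor, so it cannot show what part cell type shares had.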

How the data were processed

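RNA of P7 retinas (3 control mice and 3 labelled *Lhx4* null, 1 library a mouse) was sequenced as paired ends from TruSeq RNA libraries. The authors mapped reads with TopHat2 to GRCm38 and computed FPKM with Cufflinks, and the deposited values are these FPKM per gene (versions, annotation and use of strand are not given in the sources used here). FPKM are not counts, so no count model was used. Values were taken as log2(FPKM + 0.1), genes with a mean under 0.1 FPKM were left out, and 15200 of 21744 genes were fitted with limma 3.58.1 in R 4.3.3 (lmFit, eBayes with a trend, no covariate). p-values were adjusted by the Benjamini-Hochberg method over all genes fitted. The fold change understates that of low genes. Relative depth was read from 5708 low genes, as steps between their values. The code was tested on simulated data. Positions are from GENCODE vM21 (GRCm38) and promoters from RefSeq (GRCm38.p6). The members and lists were chosen with earlier results of these data known. All members are named with values. From every other list, genes past adjusted p 0.05, the 2 with the smallest p and the 2 with the highest mean are named, with markers of cell types that share a member; *Slc1a3*, *Kcnj10*, *Abca8a* and the genes shown with it were named after their values were seen, and of the cell type lists the genes that bear on a member are given. Alternatives covered the pseudocount, filter, scaling, trend, a replicate block and leaving out each library. Data of other ages are not analysed here, and single genes of some lists are not reported here.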

Additional observations from a re-analysis of the deposited data

How the results depend on the processing

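Under the 15 alternatives, 0 members passed an adjusted p of 0.05, as in the reported fit. The number past an unadjusted p of 0.05, reported as 4, ran from 2 to 5 when a single library was left out; it was 2 without control replicate 3 or null-labelled replicate 2. The share of all genes past that threshold and higher went from 4.60% to 2.53% and 2.91% in these, and was 7.01% at most, without null-labelled replicate 1, where 4 members passed. Without control replicate 2, where 5 members passed, the share was 4.25%. With control replicate 2 and null-labelled replicate 1 both left out, 6 members passed, with 6.21% of all genes. The median log2 fold change of the members, reported as 0.25, ran from 0.15 to 0.28 over the single-library omissions. Over the same omissions *Aqp4* ran from -0.68 to 0.13, positive without control replicate 2 (0.13) or null-labelled replicate 2 (0.12). *Gfap* ran from -0.30 to 0.18, positive without the same libraries (0.029 and 0.18). The pericyte median, -0.15 as fitted, ran from -0.27 to 0.020, positive without null-labelled replicate 2. Over all 15 alternatives the medians of the uptake (-0.048 to 0.11), gliosis (-0.013 to 0.26), intermediate filament (-0.039 to 0.13) and aquaporin lists (-0.12 to 0.12) also crossed 0, and the progenitor median ran from 0.16 to 0.79. *Sox2* no longer passed an unadjusted p of 0.05 in 7 alternatives and *Vim* in 3, while *Apoe* and *Dkk3* passed in all 15. The cause of these shifts was not tested. With the replicate number as a block, 3 members passed an unadjusted p of 0.05 and the median stayed at 0.25. Of all 15200 genes tested, those past that threshold and higher went from 699 to 608 with the block. Genes past an adjusted p of 0.05 went from 34 to 15. Same-numbered libraries did not deviate together in every pair (correlations -0.13, -0.00020 and 0.16). The labels give them only a common number, and so few libraries cannot show whether they shared any handling. Calls over all genes were 20 without a filter, 24 without the trend, and 15 to 31 with 1 library left out. *Aqp4* has no value with a filter at a mean of 1 FPKM. Depth of the null-labelled libraries limits genes under 1 FPKM, *Aqp4* among them.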

Other observations

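Relatives of the members were measured in the same libraries. Of 7 other *Sox* genes, 6 were tested and all 6 had positive log2 fold changes, with a median of 0.33 and 1 past an unadjusted p of 0.05. *Sox11*, a factor of young neurons, measured 2.86, 2.46 and 3.06 FPKM in the controls and 3.32, 4.43 and 3.59 FPKM in the null-labelled libraries (log2 fold change 0.42, limma adjusted p = 0.537), with no overlap. *Sox3* overlapped (log2 fold change 0.52, limma adjusted p = 0.686), as did the most abundant of the family, *Sox4* (mean 68.9 against 77.0 FPKM) and *Sox12* (27.5 against 29.7 FPKM).

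Of 9 other intermediate filament and linker genes, 6 were higher and 3 lower, 0 passed an adjusted or unadjusted p of 0.05 in limma, and the median log2 fold change was 0.033. The linker *Plec* (log2 fold change 0.15, limma adjusted p = 0.725) and the muscle filament gene *Des* (-0.36, limma adjusted p = 0.818) had the smallest p-values. The neuronal filament genes *Nefl* (mean 97.8 against 94.4 FPKM) and *Nefm* (51.9 against 52.9 FPKM) were the most abundant. Of 9 other aquaporins 5 could be tested, and *Aqp9* was the one past an unadjusted p of 0.05, at 0.533, 0.768 and 0.467 FPKM in the controls and 0.889, 0.939 and 0.888 FPKM in the null-labelled libraries (log2 fold change 0.57, limma adjusted p = 0.550). *Aqp11* was the most abundant of them at 2.75 to 3.80 FPKM, and its groups overlapped. Of 6 relatives and receptors of *Dkk3*, 4 were tested and 0 passed an adjusted or unadjusted p of 0.05 in limma; *Kremen1*, a Dickkopf receptor, was the most abundant (mean 8.76 against 9.97 FPKM).

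Vessel genes had the opposite sign to most members. All 8 endothelial genes were lower in the null-labelled libraries (median log2 fold change -0.21), 2 at an unadjusted p under 0.05 and 0 past an adjusted p of 0.05 in limma, and their sums were 41.5 to 48.6 FPKM against 33.2 to 40.2 FPKM. *Esam*, an adhesion molecule of endothelial junctions, measured 4.29, 5.74 and 4.19 FPKM in the controls and 3.68, 2.24 and 3.00 FPKM in the null-labelled libraries (log2 fold change -0.67, limma adjusted p = 0.429).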
